A study of Mus musculus with 13 samples.

Results

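The genes described here are 9 components of the complement system, chosen by name with earlier results of these data known. All 9 were among the 13846 genes of the authors' expression sheet. They are the C1q chains C1qa, C1qb and C1qc, the central components C3 and C4b, the terminal component C7, the inhibitor gene Serping1 and the receptor genes C3ar1 and C5ar1. Polyadenylated RNA from 13 samples of mouse tibialis anterior, which lifts the foot, was sequenced to ask how sarcospan, made from a transgene, alters dystrophic muscle. The mdxTG group (4 libraries) is of mdx mice expressing transgenic SSPN, the gene of the membrane protein sarcospan. The 4 mdx libraries came from mice of the mdx line, a model of Duchenne muscular dystrophy with a mutated dystrophin gene (Dmd), and the 5 WT libraries from wild-type mice. The labels name no agent for any group, and mdxTG and mdx share the mdx mutation. The labels state neither the age, sex or strain of the mice nor the promoter or species of the transgene. Nor do they say that libraries stem from separate animals, and the p-values therefore reflect a spread among libraries that may be technical. Library identifiers run in one series for WT and in another for mdx and mdxTG, and if these mark cohorts, cohort and genotype cannot be told apart in the comparisons with WT.

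Complement is a cascade of plasma and tissue proteins that marks cells and debris for uptake. C1q binds its targets and, through the proteases C1r and C1s, leads to the cleavage of C4 and then of C3, whose fragments coat the target and call in phagocytes, and the late components build a pore in membranes. The liver makes much of the circulating complement, while macrophages are a main source of C1q in tissues. In dystrophic muscle, fibres die and are cleared by infiltrating macrophages, and complement deposits on necrotic fibres are well known.

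Each library held 53.3 to 68.4 M reads, and reads assigned to the listed genes came to 41.7 to 53.9 M. Levels below are the authors' normalized CPM, CPM computed on an effective library size, and 3 reads amount to 0.0504 to 0.0818 on this scale. Sspn averaged 1738 ± 185 normalized CPM in mdxTG, 114 ± 4.90 in mdx and 118 ± 13.3 in WT, and Dmd averaged 59.2 ± 3.69, 52.6 ± 4.44 and 223 ± 55.4 in the same order (SD, n = 4, 4 and 5), in the direction the labels state. The 8 skeletal muscle fibre markers examined, among them Acta1 and Ckm, were detected in every library. None of the 8 hepatocyte markers examined, such as Alb and Apoa1, is among the listed genes.

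The C1q chains and both receptor genes rose in mdx muscle, while C3, C4b, C7 and Serping1 did not pass the test. Of the 9 genes, 5 rose and none fell in mdx against WT, where 34.6% of all 13831 tested genes were called, 18.5% as higher and 16.1% as lower. In mdxTG against mdx 1 fell, C3ar1, and none rose, where 28.4% of all genes were called, 15.4% as higher and 12.9% as lower. In mdxTG against WT 4 rose and none fell, where 54% of all genes were called, 28.7% as higher and 25.3% as lower. At an unadjusted p under 0.05 the limma counts of rises and falls were 5 and 0, 0 and 1, and 6 and 0. At an adjusted p under 0.05, edgeR and DESeq2 on recovered reads each called 5 and 0, 0 and 1, and 4 and 0. The median log2 fold over the 9 genes was 1.07, -0.22 and 0.76 in these comparisons, beside -0.01, -0.00 and 0.02 over all genes. Calls come from limma on log2(normalized CPM + 0.5) with all libraries in 1 fit, with Benjamini-Hochberg adjustment over all genes tested and a threshold of 0.05, and folds are on that scale. The libraries of the groups did not overlap for 5 of the 9 genes in mdx against WT, for 1 in mdxTG against mdx and for 4 in mdxTG against WT, where 26.7%, 33% and 43.2% of all genes had no overlap. Because the 9 genes were chosen with earlier results of these data known, their counts beside these shares are a description and no test of the set. In tissue RNA, fewer cells of a type and less RNA per cell cannot be told apart.

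**Figure D1:**
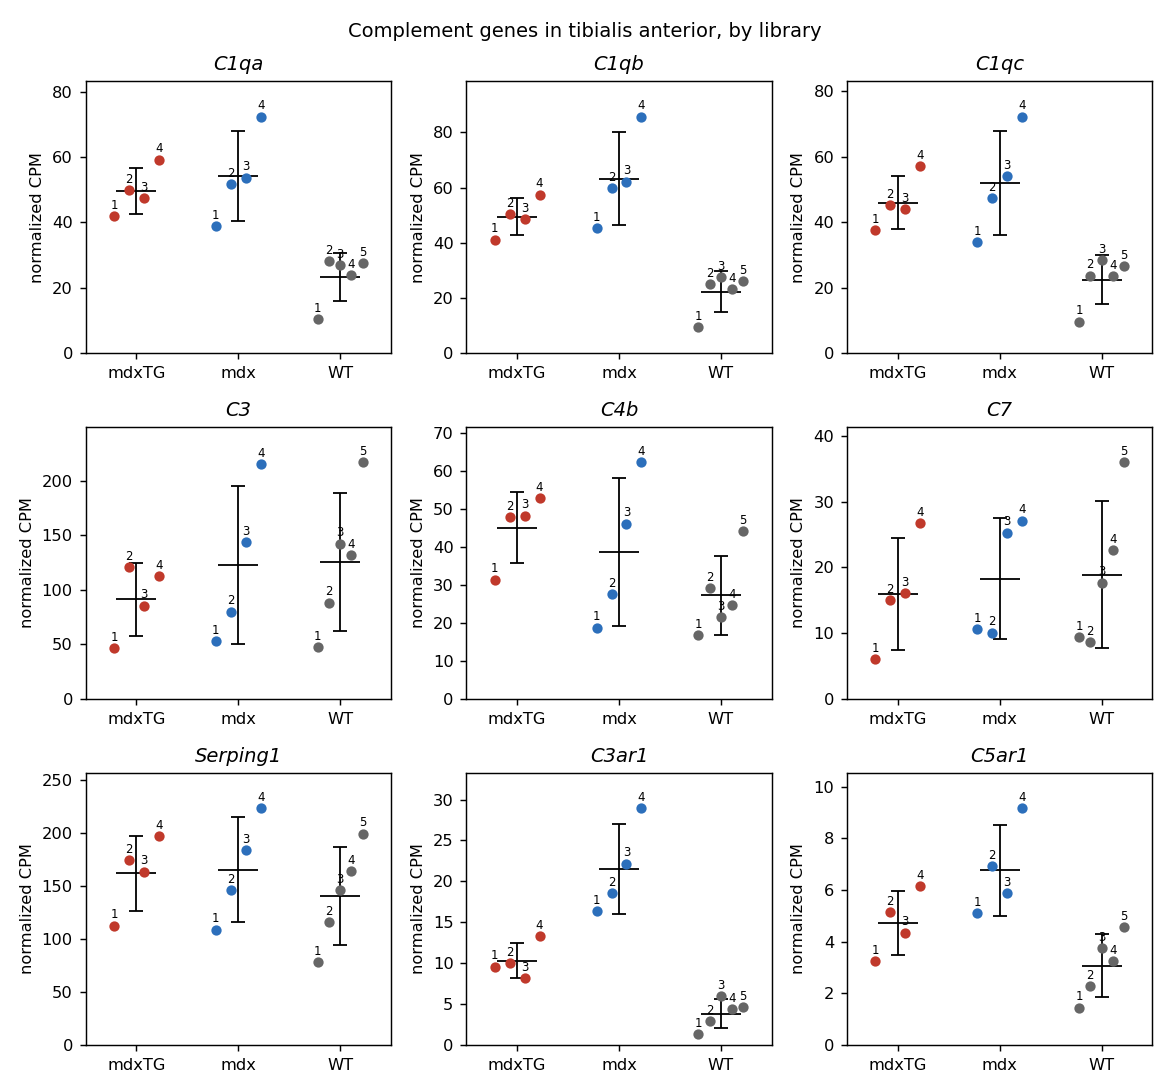
Normalized CPM (y axis) of the 9 complement genes in mdxTG, mdx and WT libraries, 1 point per library with its replicate number; horizontal lines are group means and error bars are SD (n = 4, 4 and 5). C3ar1 has 3 separate levels, 8.20 to 13.3 in mdxTG, 16.3 to 29.0 in mdx and 1.30 to 6.0 in WT, while C3 spans 46.5 to 121 in mdxTG, 53.2 to 215 in mdx and 47.6 to 217 in WT.

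C1qa, C1qb and C1qc encode the A, B and C chains that together form the C1q molecule. C1qb had 41.2, 50.5, 48.5 and 57.5 normalized CPM in the mdxTG libraries, 45.4, 59.7, 62.2 and 85.7 in the mdx libraries and 9.39, 25.0, 27.6, 23.3 and 26.1 in the WT libraries. Every mdx and every mdxTG library was above every WT library, WT replicate 1 stood well under the other WT libraries, and mdx and mdxTG overlapped. It averaged 63.3 ± 16.7 in mdx against 22.3 ± 7.38 in WT (SD, n = 4 and 5), a log2 fold of 1.54 ± 0.26 (SE, limma adjusted p = 0.00047; exact permutation p = 0.0079, the smallest that 4 against 5 libraries allow).

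C1qa had 42.0, 49.8, 47.4 and 59.2 normalized CPM in mdxTG, 38.9, 51.6, 53.7 and 72.3 in mdx and 10.5, 28.1, 26.9, 23.9 and 27.5 in WT. Its log2 fold was 1.24 ± 0.25 in mdx against WT (SE, limma adjusted p = 0.0016). C1qc had 37.5, 45.2, 44.1 and 57.1 in mdxTG, 34.0, 47.3, 54.0 and 72.2 in mdx and 9.68, 23.7, 28.5, 23.7 and 26.7 in WT. For C1qa and C1qc, WT replicate 1 was the lowest library, all WT libraries were under all others, and mdxTG lay within the range of mdx. The log2 fold of C1qc in mdx against WT was 1.23 ± 0.27 (SE, limma adjusted p = 0.0032). Without WT replicate 1, the folds in mdx against WT were 0.98 for C1qa, 1.26 for C1qb and 0.95 for C1qc, and all 3 remained past the threshold (limma adjusted p = 0.00029, 4.3e-05 and 0.0013).

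In mdxTG against WT, the chains rose by a log2 fold of 1.14 ± 0.25 for C1qa, 1.21 ± 0.26 for C1qb and 1.09 ± 0.27 for C1qc (SE, limma adjusted p = 0.0016, 0.0014 and 0.0040). None of the 3 passed in mdxTG against mdx. The log2 fold there was -0.10 for C1qa, with a 95% interval of -0.67 to 0.46. For C1qb it was -0.33 (-0.92 to 0.27), and for C1qc it was -0.14 (-0.76 to 0.48). These intervals hold both no difference and differences of more than 0.6 in size for each chain, so the libraries do not show that the chains are alike in mdxTG and mdx.

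Although the chains are parts of 1 molecule, C1qb was higher in proportion to the other chains in mdx. The ratio of C1qb to C1qa within a library, as a log2 difference, was -0.03, 0.02, 0.03 and -0.04 in mdxTG, 0.22, 0.21, 0.21 and 0.24 in mdx, and -0.15, -0.17, 0.03, -0.03 and -0.07 in WT. The 4 mdx libraries were close to each other and above all others, and mdxTG lay within the WT range. As a linear ratio this is 0.997 in mdxTG, 1.17 in mdx and 0.947 in WT. C1qc against C1qb had a mean log2 difference of -0.11 ± 0.07 in mdxTG, -0.30 ± 0.10 in mdx and 0.01 ± 0.05 in WT (SD). C1qc against C1qa did not separate the genotypes, at -0.115 ± 0.049 in mdxTG, -0.079 ± 0.097 in mdx and -0.066 ± 0.123 in WT (SD). These ratios were chosen after the levels were seen and are given without a test.

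The 3 C1q genes lie side by side on the minus strand of chromosome 4, within 18.7 kb, in GENCODE M21 for the build mm10. C1qb spans chr4:136880129-136886187, C1qc chr4:136889804-136893065 and C1qa chr4:136895917-136898803. The sequences upstream of C1qb and C1qc are shown because the chains kept nearly the same profile over the libraries, those of C3ar1 and C3 because the first had the highest fold of the 9 genes in mdx and the other did not pass the test; RefSeq promoter windows (GRCm38.p6) were matched for 6 of the 9 genes, not for C1qa, C4b and Serping1. Each is given 5′ to 3′ on the minus strand, upstream of the annotated starts in RefSeq and in GENCODE, with matches on either strand to GAGGAA, the core of the motif of the macrophage factor PU.1, in capitals. The C1qb window is chr4:136886201-136886450, that of C1qc chr4:136893066-136893164, that of C3ar1 chr6:122856162-122856407 and that of C3 chr17:57228137-57228386.
C1qb: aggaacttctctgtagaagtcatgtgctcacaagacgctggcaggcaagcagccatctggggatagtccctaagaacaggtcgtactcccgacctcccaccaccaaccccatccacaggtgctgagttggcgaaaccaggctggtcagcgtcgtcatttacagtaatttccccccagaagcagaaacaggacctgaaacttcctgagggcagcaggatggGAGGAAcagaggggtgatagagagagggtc
C1qc: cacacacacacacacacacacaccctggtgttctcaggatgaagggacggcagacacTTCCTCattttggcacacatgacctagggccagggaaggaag
C3ar1: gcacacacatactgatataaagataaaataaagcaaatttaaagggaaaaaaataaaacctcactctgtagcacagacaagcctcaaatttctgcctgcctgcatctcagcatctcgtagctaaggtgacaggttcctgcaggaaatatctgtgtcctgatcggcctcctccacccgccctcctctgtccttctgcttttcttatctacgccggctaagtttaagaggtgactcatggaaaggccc
C3: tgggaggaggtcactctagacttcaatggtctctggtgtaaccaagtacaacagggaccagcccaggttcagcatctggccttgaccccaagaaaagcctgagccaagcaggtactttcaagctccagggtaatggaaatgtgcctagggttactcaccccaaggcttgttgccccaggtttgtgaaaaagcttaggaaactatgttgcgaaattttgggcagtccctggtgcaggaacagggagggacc

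GAGGAA was matched in the 250 bases upstream of the RefSeq start of C1qb, on the forward strand at -30 to -25, and of C1qc, on the reverse strand at -193 to -188. The C1qc sequence shown is the 99 bases of its window farthest from the RefSeq start, since the rest lies within the GENCODE gene. GAGGAA was not matched in the windows of C3ar1, C3, C7 or C5ar1. Of all 32851 RefSeq promoter windows of the same length, 23.3% hold it. The C/EBP letters TTGCNNAA were matched in C3 at -45 to -38, within a motif found in 9.56% of windows, and the STAT letters TTCNNNGAA in C7 at -164 to -156, found in 7.02%. The NF-kB motif, GGG and CC with 5 bases of any kind between them, was matched in C1qb, C1qc, C3 and C3ar1. It was matched in 45.8% of all windows. C1qb, C1qc and C3 hold matches on both strands that overlap each other, and C3ar1 was matched on the reverse strand only. The NF-kB matches of C1qc, at -41 to -31, lie in the part of the window not shown. The interferon-response motif, GAAA followed by GAAA after any 2 bases, was matched in none of the 6 windows and in 2.98% of all. A match of letters is a description and not a binding site.

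C3 is the central component on which all activation routes meet. It had 46.5, 121, 85.6 and 112 normalized CPM in mdxTG, 53.2, 80.2, 144 and 215 in mdx and 47.6, 88.4, 142, 132 and 217 in WT. The 3 genotypes covered nearly the same range, and the highest library had 2.59 times the lowest in mdxTG, 4.05 times in mdx and 4.56 times in WT. The log2 fold was -0.05 ± 0.45 in mdx against WT, with a 95% interval of -1.01 to 0.90 (limma adjusted p = 0.94), and its sign changed with plain CPM, where it was 0.18. It was -0.32 ± 0.47 in mdxTG against mdx (limma adjusted p = 0.66) and -0.37 ± 0.45 in mdxTG against WT (limma adjusted p = 0.50), and with plain CPM the last of these was 0.00. The microRNA gene Mir6978 lies inside C3 on the same strand in the annotation (chr17:57203970-57228136).

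C4b encodes C4, which C1s cleaves. It had 31.4, 47.7, 48.2 and 52.8 normalized CPM in mdxTG, 18.8, 27.7, 46.1 and 62.2 in mdx and 16.8, 29.1, 21.5, 24.8 and 44.1 in WT. All mdxTG libraries but replicate 1 were above all WT libraries, and mdx spread over both ranges. The mean was 45.0 ± 9.36 in mdxTG against 27.3 ± 10.4 in WT (SD, n = 4 and 5), a log2 fold of 0.76 ± 0.32 that missed the threshold (SE, limma adjusted p = 0.054; exact permutation p = 0.040). It passed without WT replicate 5 (0.95, limma adjusted p = 0.017), without mdxTG replicate 1 (0.93, limma adjusted p = 0.035), without mdx replicate 1 or 4 (0.76, limma adjusted p = 0.029 and 0.032), with only the 2 genotypes in the fit (0.76, limma adjusted p = 0.021) and with plain CPM (1.13, limma adjusted p = 0.0081). In mdx against WT the log2 fold was 0.43 ± 0.32 and in mdxTG against mdx 0.33 ± 0.33, neither of which passed (limma adjusted p = 0.32 and 0.50). C4b (chr17:34728380-34743882) has a near-identical neighbour, C4a, which is not among the listed genes, so the split of reads between them is uncertain.

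C4b against C3 in the same library, as a log2 difference, averaged -0.96 ± 0.33 in mdxTG, -1.62 ± 0.13 in mdx and -2.11 ± 0.53 in WT (SD). The lowest mdxTG library, at -1.34, was above the highest WT library, at -1.499. This ratio was likewise chosen after the levels were seen.

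C7 joins the membrane attack complex, the pore of the terminal pathway. It had 6.10, 15.0, 16.0 and 26.7 normalized CPM in mdxTG, 10.7, 10.1, 25.3 and 27.1 in mdx and 9.47, 8.62, 17.7, 22.7 and 35.9 in WT. The genotypes overlapped throughout, and libraries within a genotype differed more than the genotype means. The log2 fold was 0.01 ± 0.46 in mdx against WT, -0.22 ± 0.49 in mdxTG against mdx and -0.21 ± 0.46 in mdxTG against WT (SE, limma adjusted p = 0.99, 0.78 and 0.72), and with plain CPM the last of these was 0.15. The small gene Gm25652 overlaps C7 on the opposite strand in the annotation (chr15:4988762-5063740), and the sources used here do not give the strand setting of the count.

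Serping1 encodes C1 inhibitor, which blocks C1r, C1s and the MASP proteases. It had 113, 175, 164 and 197 normalized CPM in mdxTG, 109, 146, 184 and 223 in mdx and 78.3, 116, 146, 164 and 199 in WT. Replicate 1 was the lowest library in each genotype, and the groups overlapped. The log2 fold was 0.25 ± 0.26 in mdx against WT and 0.24 ± 0.26 in mdxTG against WT (SE, limma adjusted p = 0.48 and 0.45). Against mdx, the log2 fold in mdxTG was -0.01, with a 95% interval of -0.59 to 0.57, and 0.13 with plain CPM.

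The labels number the libraries and state no pairing. Over all genes, deviations of WT and mdx libraries with the same number, 1 to 4, correlated at r = 0.18 to 0.45. But mdx replicates 3 and 4 correlated more with WT replicate 5 (r = 0.36 and 0.48) than with their own number. The block used next thus rests on these data and not on the labels, and the calls it gives are not read as support for a change. With the replicate number as a block and those 2 genotypes in the fit, Serping1 passed in mdx against WT at a log2 fold of 0.39 (limma adjusted p = 0.0022) and C7 at 0.28 (limma adjusted p = 0.031). C4b was then at 0.62 (limma adjusted p = 0.051). WT replicate 5 shares its number with no mdx library and adds nothing to this contrast. With the block and all 3 genotypes in the fit, Serping1 passed again (limma adjusted p = 0.0057), C4b passed (limma adjusted p = 0.029) and C7 did not (limma adjusted p = 0.28).

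C3ar1 encodes the receptor of C3a, the small fragment released from C3 that attracts and activates myeloid cells. It had 9.58, 10.03, 8.20 and 13.3 normalized CPM in mdxTG, 16.3, 18.6, 22.2 and 29.0 in mdx and 1.30, 2.89, 6.0, 4.35 and 4.62 in WT. The 3 genotypes did not overlap, with mdx highest, WT lowest and mdxTG between them. C3ar1 averaged 21.5 ± 5.51 in mdx against 3.83 ± 1.79 in WT (SD, n = 4 and 5), a 5.42-fold difference and a log2 fold of 2.44 ± 0.30 (SE, limma adjusted p = 3.2e-05; exact permutation p = 0.0079).

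C3ar1 alone of the 9 genes changed in mdxTG against mdx. It fell to 10.3 ± 2.14 normalized CPM in mdxTG, against 21.5 ± 5.51 in mdx (SD, n = 4 each), a log2 fold of -1.02 ± 0.31 (SE, limma adjusted p = 0.024; exact permutation p = 0.029, the smallest that 4 against 4 allow). It stayed above WT, at a log2 fold of 1.42 ± 0.30 (SE, limma adjusted p = 0.0010; exact permutation p = 0.016). The call against mdx was narrow: the log2 fold was -0.88 with plain CPM (limma adjusted p = 0.053). Without mdx replicate 3 it was -0.995, without mdx replicate 4 -0.87, and without mdxTG replicate 1, 2 or 3 it was -0.995, -1.02 and -0.92 (limma adjusted p = 0.054, 0.073, 0.055, 0.054 and 0.068).

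C5ar1 encodes the receptor of C5a, a stronger attractant of neutrophils and macrophages than C3a. It had 3.25, 5.13, 4.35 and 6.16 normalized CPM in mdxTG, 5.11, 6.93, 5.87 and 9.17 in mdx and 1.45, 2.29, 3.76, 3.26 and 4.56 in WT. All mdx libraries were above all WT libraries, and mdxTG overlapped both. C5ar1 rose in mdx, with 6.77 ± 1.77 against 3.06 ± 1.22 in WT (SD, n = 4 and 5), a log2 fold of 1.07 ± 0.25 (SE, limma adjusted p = 0.0047; exact permutation p = 0.016). In mdxTG against mdx the log2 fold was -0.48, with a 95% interval of -1.05 to 0.10 (limma adjusted p = 0.21). In mdxTG against WT it was 0.60 ± 0.25 (SE, limma adjusted p = 0.061; exact permutation p = 0.12), and it passed without WT replicate 3 or 5, without mdxTG replicate 1 and with plain CPM (limma adjusted p = 0.048, 0.022, 0.033 and 0.0088).

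The receptors differed in their balance. C5ar1 against C3ar1 in the same library, as a log2 difference, was -1.56, -0.97, -0.91 and -1.11 in mdxTG, -1.68, -1.43, -1.92 and -1.66 in mdx and 0.15, -0.34, -0.67, -0.41 and -0.02 in WT. Every mdxTG and every mdx library had a lower difference than any WT library, and mdxTG and mdx overlapped through mdxTG replicate 1. This ratio, too, was chosen after the levels were seen and has no test.

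**Figure D2:**
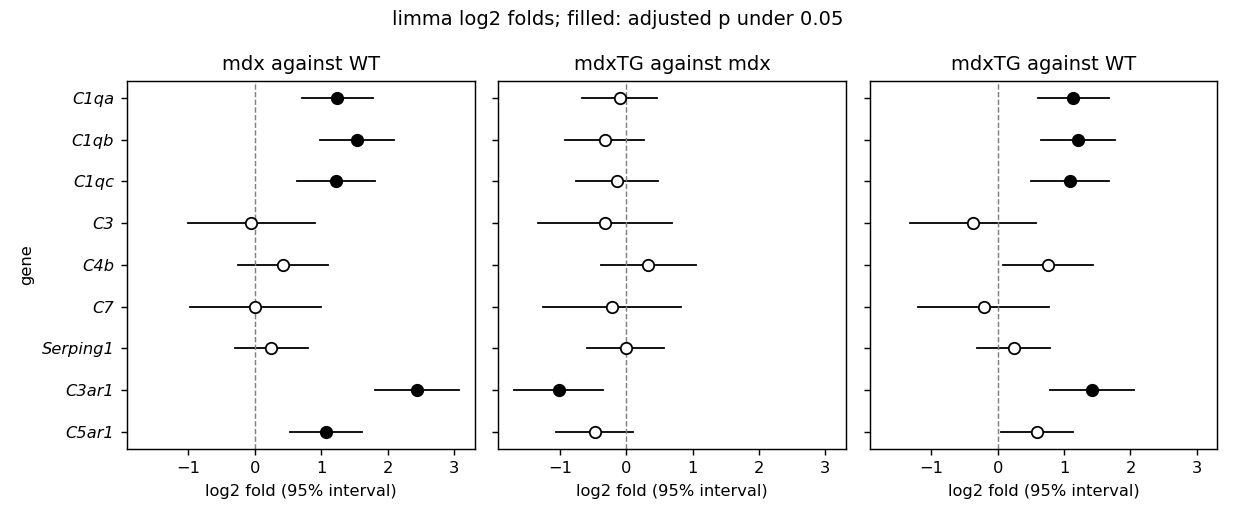
Log2 folds (x axis, from limma on log2(normalized CPM + 0.5)) of the 9 genes (y axis) for the 3 comparisons, 1 panel each; bars are 95% intervals and filled points have an adjusted p under 0.05. C3ar1 is filled in all 3 panels, at 2.44, -1.02 and 1.42, and the intervals of C3 and C7 reach about 1 to either side of zero.

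In the authors' deposited table of mdx against WT, C1qa, C1qb, C1qc, C3ar1 and C5ar1 are listed, with a log2 fold of 1.21, 1.505, 1.21, 2.49 and 1.14. The authors' deposited table of mdxTG against WT lists C1qa, C1qb, C1qc and C3ar1, at 1.085, 1.148, 1.03 and 1.42. None of the 9 genes is in the authors' deposited table of mdxTG against mdx. Absence from these tables is not read as no difference. Cd55, for example, is not listed for mdx against WT, though its log2 fold there was 0.98 (limma adjusted p = 1.0e-05).

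Per kb of annotated exon, Serping1 was the most abundant of the 9 genes and the receptors were the least. The length is that of all annotated exons of a gene together, which may exceed that of the transcripts present. It was 1931 bases for C1qc, against 1040 for C1qa and 1088 for C1qb, and the order depends on it. Serping1 had 69.6 ± 15.3 normalized CPM per kb of exon in mdxTG, 71.1 ± 21.2 in mdx and 60.6 ± 19.8 in WT (SD). In mdx, C1qb and C1qa followed at 58.2 ± 15.3 and 52.0 ± 13.3 per kb, then C1qc at 26.8 ± 8.24 and C3 at 23.9 ± 14.1, and these neighbours overlapped in range. C7 was lower, at 6.83 ± 3.42 per kb, without overlap with C3. C4b was next at 6.79 ± 3.40 per kb and overlapped with C7 and with C3ar1, at 4.997 ± 1.28. C5ar1 was last at 2.63 ± 0.69 per kb, below every mdx value of C3ar1. In WT, C3 took the second place at 24.4 ± 12.3 per kb, next to C1qa at 22.5 ± 7.12 and overlapping with it, and C3ar1 was last at 0.89 ± 0.42. In mdxTG the order was that of mdx except that C1qa stood before C1qb and C4b before C7, each within overlapping ranges.

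The rises of the C1q chains and the receptors ran alongside those of macrophage markers. Of 17 macrophage markers, among them Adgre1, Cd68 and Csf1r, 15 rose and none fell in mdx against WT, 1 rose and 5 fell in mdxTG against mdx, and 14 rose and none fell in mdxTG against WT. These counts and those of the other markers stand beside the 34.6%, 28.4% and 54% of all genes called in the 3 comparisons, and nothing is read from the fibroblast markers, with 4, 3 and 8 of 12 called. The summed level of the macrophage markers was 585 to 807 normalized CPM in mdxTG, 670 to 1242 in mdx and 115 to 360 in WT, and no marker was at 0 in any library. The part of these markers in the changes of the complement genes was not tested. Marker lists, too, were chosen with earlier results of these data known, so their counts are a description. Of 12 fibroblast markers, 4 rose and none fell in mdx against WT, 3 rose and none fell in mdxTG against mdx, and 7 rose and 1 fell in mdxTG against WT, and their sum was 2576 to 3862 in mdxTG, 2010 to 3074 in mdx and 1662 to 3383 in WT. Of 8 endothelial markers, 1 fell in mdx against WT, none changed in mdxTG against mdx and 4 fell in mdxTG against WT. Of 7 neutrophil markers 5 were listed and 2 tested, and the 5 summed to 2.69 to 14.1 in mdxTG, 5.17 to 6.92 in mdx and 2.85 to 10.4 in WT. Of the 8 skeletal muscle fibre markers, 3 fell in mdx against WT, 3 in mdxTG against mdx and 5 in mdxTG against WT.

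Set against the mean log2 level of the 17 macrophage markers in the same library, C3ar1 was higher in mdx than in the other genotypes. Its log2 difference to that mean was -0.78, -1.03, -1.04 and -0.81 in mdxTG, -0.16, -0.34, -0.28 and -0.22 in mdx and -1.11, -1.02, -0.71, -0.75 and -0.89 in WT. All mdx libraries lay above all others, and mdxTG lay within the WT range. C5ar1 went the other way, at -1.97 ± 0.16 in mdxTG and -1.85 ± 0.18 in mdx against -1.13 ± 0.18 in WT (SD). C1qa was also lower relative to these markers, at 1.31 ± 0.08 in mdxTG and 1.06 ± 0.06 in mdx against 1.61 ± 0.26 in WT (SD). For C1qa the mdxTG and WT libraries overlapped. C3 differed from the markers by 2.10 ± 0.46 in mdxTG, 2.07 ± 0.54 in mdx and 3.92 ± 0.36 in WT (SD). On average, every gene but C3ar1 was highest in WT relative to these markers. The markers themselves did not move alike. Their log2 folds ran from -0.479 to 3.42 in mdx against WT and from -1.35 to 1.63 in mdxTG against mdx. In mdxTG against WT they ran from 0.01 to 4.14. The differences to their mean thus depend on which markers are averaged, and they have no test.

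**Figure D3:**
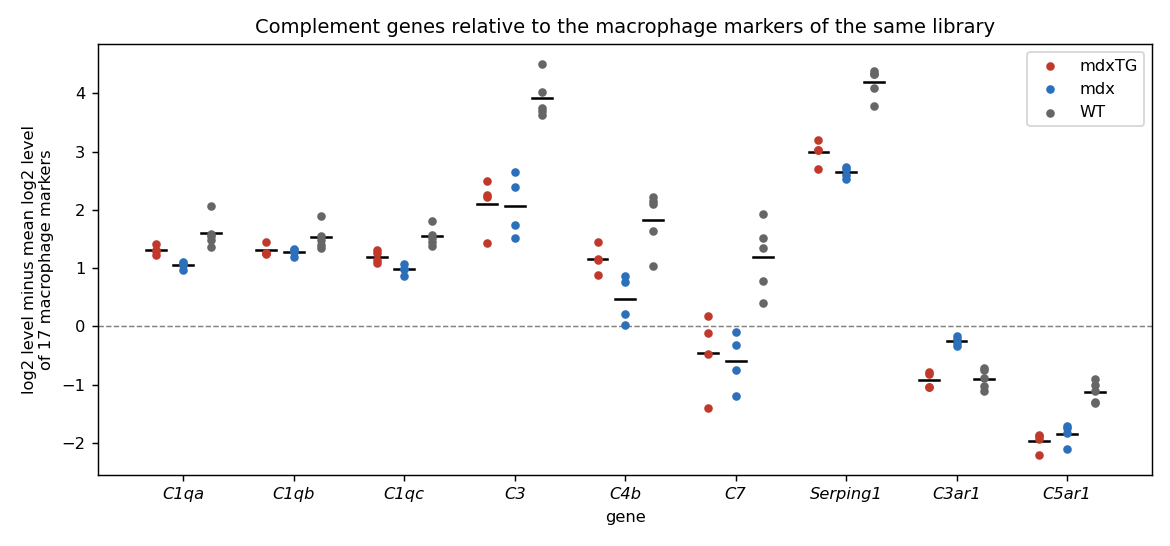
Log2 level of each complement gene minus the mean log2 level of 17 macrophage markers in the same library (y axis), for the 9 genes (x axis) in mdxTG, mdx and WT; points are libraries and lines are means. C3ar1 stands at -0.92 in mdxTG, -0.25 in mdx and -0.90 in WT on average, whereas all the other genes are highest in WT on average.

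Within each genotype the 9 genes tended to be high or low in the same libraries. Replicate 1 was the lowest library for 8 of the 9 genes in mdxTG, in mdx and in WT. Replicate 4 was the highest for 8 genes in mdxTG and for 9 in mdx, and in WT replicate 5 was the highest for 5. After removal of the genotype means, the C1q chains correlated with each other at r = 0.98 to 0.99 over the 13 libraries, and C3 with Serping1 at r = 0.98. C3 followed the mean of the fibroblast markers at r = 0.96 and that of the macrophage markers at r = 0.89. In the same order r was 0.95 and 0.89 for Serping1, 0.82 and 0.97 for C3ar1 and 0.92 and 0.92 for C5ar1. These genes thus followed both lists, and no cell type is read from the coefficients. The lowest of these correlations between members was that of C4b with C3ar1, at r = 0.55. Both values of a pair come from the same library, with its depth and scaling, and the coefficients are a description.

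**Figure D4:**
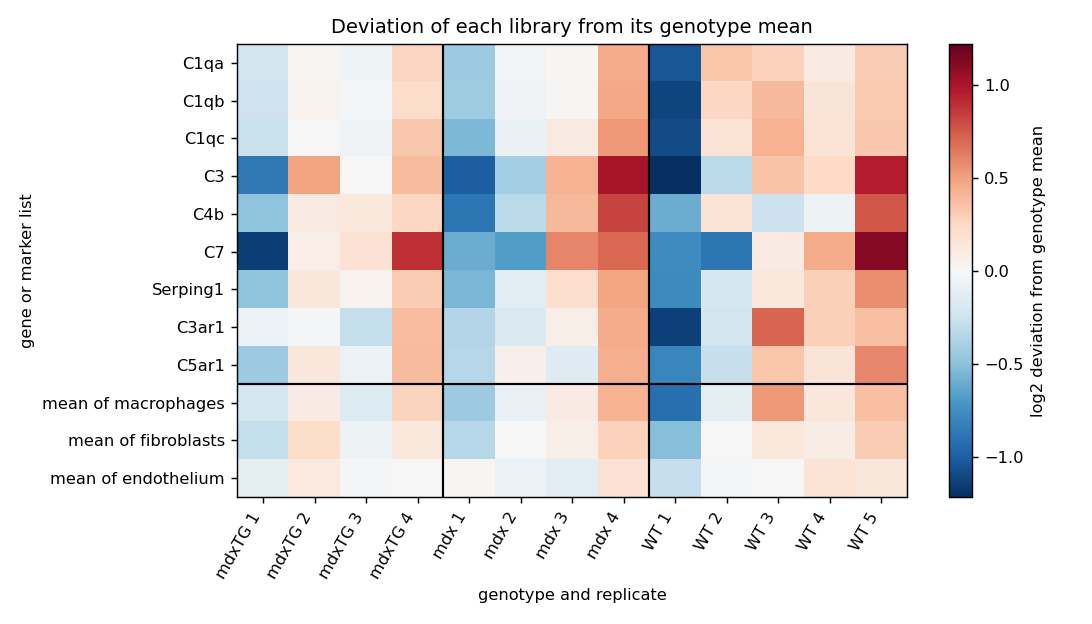
Log2 deviation of each library from the mean of its genotype (colour; blue below, red above), for the 9 genes and for the means of the macrophage, fibroblast and endothelial markers (rows) in 13 libraries (columns, by genotype and replicate). Replicate 1 is below its genotype mean for all 9 genes in every genotype, down to -1.22 for C3 in WT, while the endothelial mean of mdx replicate 1 is at 0.025, and replicate 4 of mdx is high, up to 1.00 for C3.

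The genes most like each member were sought among 12966 others with a mean of at least 1 normalized CPM, by Pearson r of the log2 levels over the 13 libraries. For C1qa they were H2-Eb1, H2-Aa and H2-Ab1 (r = 0.99, 0.99 and 0.98), genes of MHC class II. For C1qb they were the Fc receptor gene Fcgr3, Ptpn6 and Pld4 (r = 0.99 each), and for C1qc H2-Aa, Ptpn6 and Fcgr2b (r = 0.99, 0.98 and 0.98). C3ar1 was most like Mpeg1, Cd84 and Ms4a7 (r = 0.99 each), of which Mpeg1 is in the list of macrophage markers, and C5ar1 was most like Kcnk6, Rab7b and Rab8b (r = 0.98, 0.98 and 0.97).

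C3 was most like Scara5, Fndc1 and Slco2b1 (r = 0.97, 0.96 and 0.96). Serping1 was most like Abi3bp, F13a1 and Thbs2 (r = 0.97, 0.95 and 0.94), and C7 was most like Pik3r1, C1qtnf1 and Flt4 (r = 0.94, 0.93 and 0.92). Among the genes most like C4b were Prkci and Spsb1 (r = 0.92 and 0.91).

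Of 52 further complement genes, 27 were in the sheet and all 27 were tested, and the others were not analysed here. This list, too, was chosen with earlier results of these data known. In mdx against WT 14 rose and 2 fell. In mdxTG against mdx 3 rose and 6 fell, and in mdxTG against WT 13 rose and 6 fell. The rises in both comparisons of mdxTG include Hc. It passed the filter on low values through the mdxTG libraries alone, so its calls were fixed in advance. Of all genes, 34.6%, 28.4% and 54% were called in these comparisons, and 9 of 27 in mdxTG against mdx is near that share. With plain CPM the splits were 14 and 1, 4 and 4, and 18 and 2, where 87.5%, 78.1% and 87% of all calls were higher. The median log2 fold of the 27 genes was 0.47 in mdx against WT, -0.02 in mdxTG against mdx and 0.46 in mdxTG against WT.

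Initiation of the classical and lectin routes was represented by 6 genes, of which 3 rose in mdx against WT, 1 fell in mdxTG against mdx, and 3 rose and 1 fell in mdxTG against WT, where 34.6%, 28.4% and 54% of all genes were called. With so few genes, nothing is read from these shares. C1s1, the protease that C1q activates through C1r, rose in mdx and in mdxTG, with 89.2 ± 12.3 normalized CPM in mdxTG, 78.4 ± 13.7 in mdx and 53.6 ± 11.04 in WT (SD; log2 fold 0.56 and 0.75 against WT, limma adjusted p = 0.014 and 0.0011). C1ra, a gene of C1r, rose by 0.59 in mdx and 0.70 in mdxTG against WT (limma adjusted p = 0.044 and 0.013), and its call in mdx was lost without WT replicate 1, 2 or 4, mdx replicate 2, 3 or 4 or mdxTG replicate 2, 3 or 4 (log2 fold down to 0.39, limma adjusted p up to 0.14). It was also lost with only the 2 genotypes in the fit (limma adjusted p = 0.074). The call of C1s1 in mdx was lost without mdx replicate 4 (0.45, limma adjusted p = 0.054).

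Masp1, a protease of the lectin route, moved both ways. It had 3.12, 3.96, 4.25 and 4.74 normalized CPM in mdxTG, 8.03, 8.98, 8.39 and 7.86 in mdx and 4.52, 4.36, 6.52, 5.27 and 7.13 in WT. The mdx libraries were above all others, and mdxTG and WT overlapped. Masp1 rose in mdx against WT (log2 fold 0.56, limma adjusted p = 0.0071) and fell in mdxTG against mdx (-0.98, limma adjusted p = 0.00023). In mdxTG against WT it fell by 0.41 (limma adjusted p = 0.024), and the call was lost with plain CPM (-0.07) and without WT replicate 3 or 5 or mdxTG replicate 1 (-0.35, -0.33 and -0.31). Other genes overlap Masp1 on the opposite strand, Rtp4 among them.

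Colec12, a membrane collectin that acts as a scavenger receptor, rose in mdxTG against WT, at 34.9 ± 7.04 normalized CPM in mdxTG against 15.0 ± 6.69 in WT (SD, n = 4 and 5; log2 fold 1.30, limma adjusted p = 0.0018). Of the 2 genes of the alternative route, Cfp, which encodes properdin, rose in mdx against WT by 0.45 (limma adjusted p = 0.043). The call was lost without WT replicate 1 or 4, without mdx replicate 2, 3 or 4 and without mdxTG replicate 2 or 3 (log2 fold down to 0.32, limma adjusted p up to 0.12), and with only the 2 genotypes in the fit (limma adjusted p = 0.064). Cfd, factor D, passed in no comparison.

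Hc, the mouse gene of C5, was read almost only in mdxTG. It had 200, 210, 170 and 227 reads in mdxTG, 0, 7, 3 and 1 in mdx and 0, 0, 0, 0 and 2 in WT. Every mdxTG library was far above every other library. These are 4.17, 3.84, 2.85 and 4.48 normalized CPM in mdxTG, against at most 0.16 in mdx and 0.04 in WT, where a count of 0 allows up to 3 reads. Per effective library size, reads in mdxTG were 65.1 times those in mdx (exact 95% interval 36.2 to 131) and 387 times those in WT (107 to 3197), for counting error only. Hc passed the filter on low values through the 4 mdxTG libraries alone, so it had to differ; the fitted log2 folds, 2.94 against mdx and 3.08 against WT, depend on the pseudocount, and the authors' deposited table gives 5.97 and 8.27. The labels give neither the strain of the mice nor whether the 3 groups share one. Hc lies at chr2:34983331-35061438 and overlaps Gm13449 on the opposite strand. C5 is cut into C5a, the ligand of the C5ar1 receptor, whose level in mdxTG is given above. C8g, of the terminal pathway, fell in mdxTG against WT, at 1.01 ± 0.14 normalized CPM in mdxTG against 1.68 ± 0.56 in WT (SD; log2 fold -0.49, limma adjusted p = 0.030), and did not pass with plain CPM (-0.22), without WT replicate 1 or 2 (-0.45 and -0.36) or without mdxTG replicate 2 or 4 (-0.48 and -0.43).

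Of 8 regulators, 3 rose and 1 fell in mdx against WT, 2 fell in mdxTG against mdx, and 3 rose and 3 fell in mdxTG against WT. The shares of all genes called there were 34.6%, 28.4% and 54%, and nothing is read from the 4, 2 and 6 of 8 regulators called. Clu encodes clusterin, a chaperone that also blocks the terminal pore. It had 17.6, 21.5, 31.9 and 26.4 normalized CPM in mdxTG, 98.0, 106, 79.3 and 79.4 in mdx and 60.02, 61.9, 83.9, 56.7 and 56.5 in WT. The mdxTG libraries were below all others, while mdx and WT overlapped through WT replicate 3. Clu fell by 1.90 on the log2 scale in mdxTG against mdx and by 1.39 against WT (limma adjusted p = 1.7e-06 and 5.7e-06). Its rise in mdx against WT, 0.51 (limma adjusted p = 0.025), was lost without WT replicate 4 or 5 (0.47 each) and without mdx replicate 1 or 2 (0.46 and 0.43).

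Cd55 encodes decay-accelerating factor, which takes C3 convertases apart, and Cd59a encodes a membrane inhibitor of the pore. Both rose in mdx and in mdxTG. Cd55 averaged 127 ± 15.6 normalized CPM in mdxTG, 141 ± 13.7 in mdx and 71.3 ± 8.11 in WT, and Cd59a averaged 46.4 ± 2.65, 44.2 ± 6.62 and 18.7 ± 4.31 (SD). The log2 folds of Cd59a were 1.24 in mdx against WT and 1.32 in mdxTG against WT (limma adjusted p = 2.6e-05 and 3.8e-06), and those of Cd55 were 0.98 and 0.82 (limma adjusted p = 1.0e-05 and 1.3e-05). Cd59b, the second mouse copy of Cd59, fell in both, at 1.86 ± 0.28 in mdxTG, 2.28 ± 0.44 in mdx and 3.57 ± 0.61 in WT (SD; log2 fold -0.55 in mdx and -0.78 in mdxTG against WT, limma adjusted p = 0.0063 and 0.00026). Cd59a and Cd59b are paralogs, and the sources used here do not say how reads shared between them were assigned.

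Of 9 receptors and C1q-binding proteins, 7 rose and 1 fell in mdx against WT, 2 rose and 3 fell in mdxTG against mdx, and 6 rose and 1 fell in mdxTG against WT. That is 8, 5 and 7 of 9 called, beside 34.6%, 28.4% and 54% of all genes. Itgax and Itgam encode the alpha chains of the complement receptors CR4 and CR3, which bind a breakdown product of C3b. Itgax had 4.69, 5.99, 4.84 and 8.44 normalized CPM in mdxTG, 8.86, 9.36, 11.6 and 14.5 in mdx and 0.80, 1.28, 1.79, 0.98 and 1.75 in WT. The 3 genotypes did not overlap, in the order that C3ar1 had. The log2 fold of Itgax was 2.68 in mdx against WT, -0.85 in mdxTG against mdx and 1.83 in mdxTG against WT (limma adjusted p = 8.4e-07, 0.0097 and 4.5e-06). For Itgam these were 1.5, -1.01 and 0.49 (limma adjusted p = 3.5e-05, 0.0014 and 0.036), the last lost without WT replicate 1, 3 or 4 or mdxTG replicate 1, 2 or 4 (log2 fold down to 0.34, limma adjusted p up to 0.089).

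Vsig4, the receptor CRIg of resident macrophages, rose in every comparison. It had 1.25, 1.97, 1.85 and 2.29 normalized CPM in mdxTG, 0.41, 0.65, 0.88 and 1.402 in mdx and 0.12, 0.08, 0.16, 0.13 and 0.22 in WT. All mdx libraries were above WT, and only mdx replicate 4 reached into the mdxTG range. Its log2 fold was 1.01 in mdx against WT, 0.84 in mdxTG against mdx and 1.85 in mdxTG against WT (limma adjusted p = 0.0011, 0.0061 and 1.9e-06). With 3 to 11 reads per WT library, its folds against WT depend on the pseudocount: in mdx against WT the log2 fold was 1.86 at a pseudocount of 0.1 and 0.66 at 1, in mdxTG against WT it was 2.995 and 1.30, and all passed. The authors' deposited table gives 2.51 for mdx and 3.64 for mdxTG against WT. Of C3ar1, Itgam, Itgax and Vsig4, the authors' deposited table of mdxTG against mdx lists Itgam alone, at -1.14. By the limma calls, C3ar1, Itgam and Itgax fell in mdxTG against mdx while Vsig4 rose. Calr, calreticulin, a chaperone that binds C1q at the cell surface, rose as well, with 227 ± 4.65 in mdxTG, 162 ± 10.1 in mdx and 136 ± 7.09 in WT (SD), a log2 fold of 0.25, 0.48 and 0.73 in the 3 comparisons (limma adjusted p = 0.0065, 0.00010 and 3.1e-07).

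**Figure D5:**
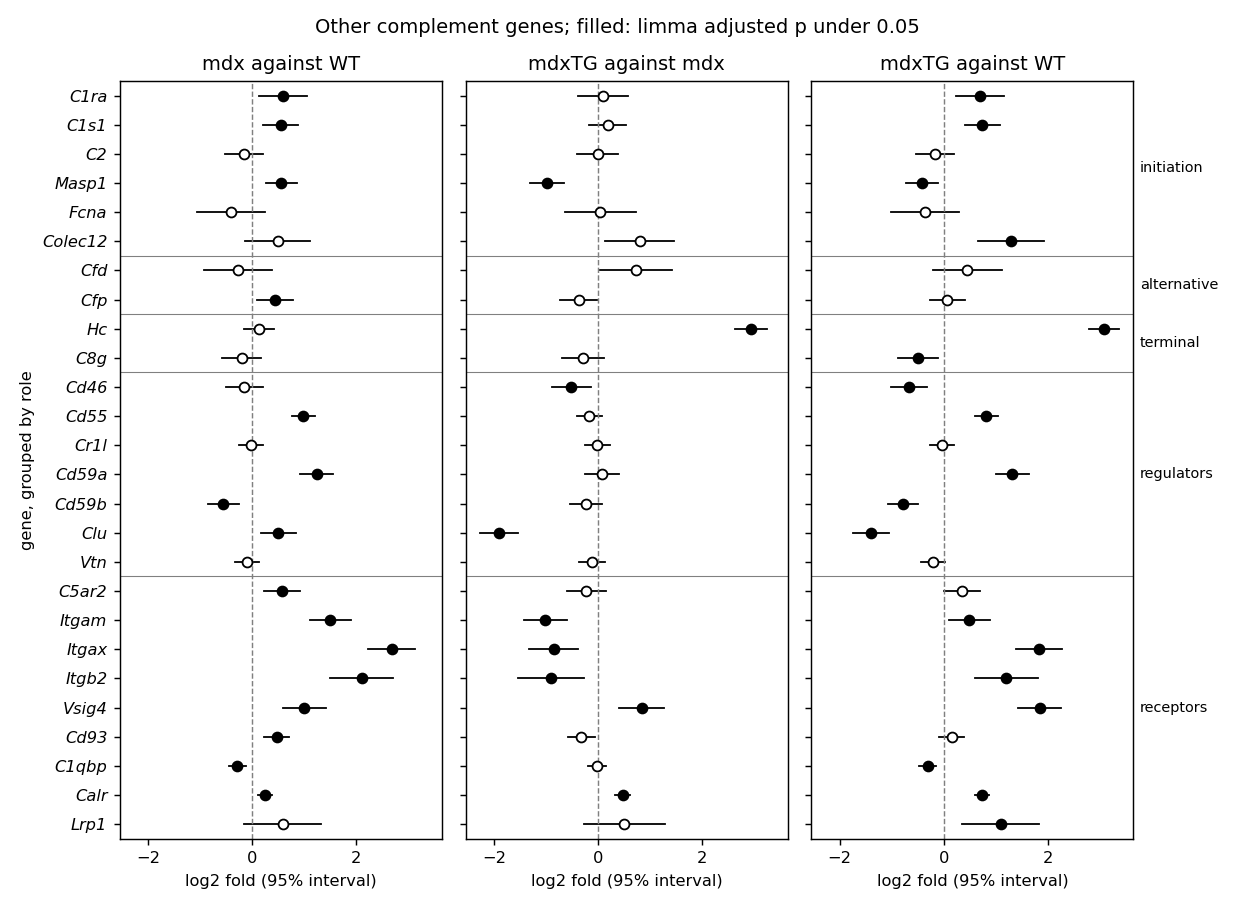
Log2 folds (x axis) of further complement genes (y axis, grouped by role) for the 3 comparisons, 1 panel each; bars are 95% intervals and filled points have a limma adjusted p under 0.05. Hc stands at 2.94 and 3.08 in the comparisons of mdxTG, and Clu at -1.90 and -1.39. Hc passed the filter on low values through the mdxTG libraries alone, so its filled points were fixed in advance.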

How the data were processed

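RNA was extracted with TRIzol and RNeasy columns and made into stranded mRNA libraries, per the labels' protocols. Per the submitters' processing notes, bcl2fastq 2.17, STAR, edgeR and the build mm10 were used; the sources used here do not give other versions, the read counter or its strand setting. The authors deposited read counts per library and the fraction mapped in each way. Their sheet holds a normalized signal, named CPM by the authors, from which whole reads were recovered (100% of values within 0.001 reads). The authors' deposited tables give log2 fold changes and p-values. Scaling by the authors, with factors of 1.11 to 1.19 in mdxTG, 1.01 to 1.07 in mdx and 0.831 to 0.932 in WT, bears on every fold.

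The main test was limma 3.58.1 (R 4.3.3, trend) on log2(normalized CPM + 0.5), with all 13 libraries in 1 fit and genes at 0.5 or more in 4 libraries (13831 of 13846). A pseudocount of 0.5 understates folds of low genes. Exact two-sided permutation tests of the log2 levels were added per member. Alternatives were other pseudocounts and filters, plain CPM, DESeq2 size factors, edgeR 4.0.16 and DESeq2 1.42.0 on recovered reads, only 2 genotypes in the fit, a replicate block, and each library left out. The pipeline was tested on simulated data. All 9 members are named, with up to 4 genes per role with the smallest p, among those past the threshold; 1 gene of the wider list is counted but not reported by name here. The members and lists were chosen with earlier results of these data known. Replicate numbers were checked for pairing. Over all genes, deviations of same-numbered mdx and WT libraries correlated at r = 0.34, 0.45, 0.33 and 0.18. Each was over 0.1, and the number was used as a block in alternative fits only, while the main test holds no pairing. But mdx replicate 4 correlated more with WT replicates 3 and 5 (0.30 and 0.48), and mdx replicate 3 with WT replicate 5 (0.36). The numbers are thus not shown to be pairs. For mdxTG with mdx, r was 0.41, -0.36, -0.19 and 0.32, and those share only a number. Replicates differed by more than sampling noise (chi-square per degree of freedom 24.2 to 183). Intervals on reads cover counting error only.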

Additional observations from a re-analysis of the deposited data

Results flagged for a closer look

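In WT replicate 1, C1qa (10.5 normalized CPM), C1qb (9.39) and C1qc (9.68) lay far under the other WT libraries, which had 23.9 to 28.1, 23.3 to 27.6 and 23.7 to 28.5. The gap to the next library took 0.76, 0.77 and 0.74 of the range of the 5 WT libraries, past Dixon's 95% limit for 5 values. Of 27 groups of libraries examined (9 genes in 3 genotypes) these 3 were flagged, and chance flags about 1 in 20. The 3 genes vary together, so they are not separate findings. The macrophage markers were lowest in the same library, at a sum of 115 normalized CPM against 239 to 360 in the other WT libraries; their part in this was not tested. Without this library, the C1q chains kept their calls in mdx against WT and in mdxTG against WT.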

How the results depend on the processing

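In mdx against WT, 5 of the 9 genes were called under every other setting except the replicate block, which called 7, as did the block with only the 2 genotypes, an alternative chosen after seeing the data. In mdxTG against mdx, 1 was called, against none with plain CPM, 2 with the block and 0 to 1 when libraries were left out; with plain CPM 1 passed at an unadjusted p under 0.05 (limma). In mdxTG against WT, 4 were called, 7 with the block, 6 with plain CPM, 5 with only the 2 genotypes in the fit, which added C4b, and 4 to 6 with libraries left out. The labels state no pairing for any genotype. Same-numbered mdxTG libraries did not all deviate together with those of mdx or WT, so the block has no basis in the comparisons of mdxTG. There it added C5ar1 in mdxTG against mdx, and C4b, Serping1 and C5ar1 in mdxTG against WT.

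Signs turned only for genes without a call. With plain CPM, C3 was at 0.179 in mdx against WT; C1qa, C1qc and Serping1 were at 0.040, 0.004 and 0.133 in mdxTG against mdx; C3 and C7 were at 0.000 and 0.153 in mdxTG against WT. Plain CPM shifted the median of all genes to 0.202, 0.133 and 0.362 in the 3 comparisons and the share of higher calls to 87.5%, 78.1% and 87%, against 53.5%, 54.4% and 53.1%, so its folds stand relative to that shift. With either block C3 was at 0.186 in mdx against WT, and with the block C7 was at 0.066 in mdxTG against WT. C7 in mdx against WT was at -0.042 with DESeq2 and -0.049 with edgeR. With libraries left out, C3 and C7 ranged from -0.387 to 0.282 and from -0.224 to 0.284 in mdx against WT. In mdxTG against mdx C1qa ranged from -0.248 to 0.048, C1qc from -0.321 to 0.038, C3 from -0.657 to 0.013, C7 from -0.515 to 0.165 and Serping1 from -0.194 to 0.154. In mdxTG against WT C7 ranged from -0.508 to 0.173. The causes were not tested. C3 and C7 had at least 293 reads in every library, so the spread between libraries rather than counting error set their intervals.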
